A study of Mus musculus with 3 samples.

Results

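Neural and neuroendocrine transcription factors were followed in prostate tumors of TRAMP mice with and without the histone demethylase gene Phf8. The set holds 8 genes named by their role, of 46095 gene rows counted: Insm1, Neurod1, Nkx2-2, Prox1, Onecut2, Pou3f2, Mycn and Rest. All 8 have a row in the count table, 7 have a count in at least 1 library, and 5 passed a filter on low counts and could be tested among 18216 genes. In the 2 Phf8-KO libraries together Prox1 stood at 0.182 times its TRAMP level (95% counting interval 0.152 to 0.216), Onecut2 and Insm1 lay lower, and Mycn and Rest lay higher, while Neurod1, Nkx2-2 and Pou3f2 were at or near 0 everywhere. None of the 5 genes tested passed edgeR's quasi-likelihood test, in which 0.0384% of all genes tested were called lower and 0% higher. Prox1 alone passed DESeq2, which called 4.59% of genes lower and 9.42% higher.

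The study asked how loss of Phf8 alters tumors in TRAMP, a transgenic strain in which an SV40 viral oncoprotein expressed in the prostatic epithelium drives cancer. All mice carried the transgene and were 37 weeks old, and the groups differed in genotype, PHF8 wild-type for the control TRAMP mice and PHF8 knockout for the Phf8-KO mice. There was 1 TRAMP library and there were 2 Phf8-KO libraries, named Phf8-KO1 and Phf8-KO2, and each was made from the RNA of 3 mice mixed in equal mass. Nothing in the sources used here says which lesions entered each pool or whether the Phf8-KO pools came from different mice. The p-values rest only on the spread between the 2 Phf8-KO libraries, as there was 1 TRAMP library. The knocked out gene Phf8 was at 19.4, 15.0 and 15.9 CPM (the level of a gene, its counts scaled to library size with TMM factors) in the TRAMP, Phf8-KO1 and Phf8-KO2 libraries, and since the part of the gene that the allele lacks is not given, this level does not check the genotype. Levels given as 3 values are in the order TRAMP, Phf8-KO1 and Phf8-KO2. Library totals ran from 26747443 to 31876182 counts, and 3 counts, the most that a count of 0 allows, corresponded to 0.0905 to 0.113 CPM. The Phf8-KO libraries differed from each other by more than 2-fold in 18.4% of genes tested. Markers of the prostate luminal epithelium were present in every library. Among them Pbsn was at 175, 109 and 134 CPM, Hoxb13 at 151, 174 and 229 CPM and the keratin gene Krt18 at 1557, 1305 and 1348 CPM.

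As background, neuroendocrine cells are rare in the prostate epithelium and release peptides and amines from granules, and neuroendocrine prostate cancer takes on their gene program while losing dependence on androgens. In nerve and endocrine lineages, proneural factors of the basic helix-loop-helix (bHLH) class start the program, and factors such as INSM1, NEUROD1, NKX2-2 and PROX1 then act in the differentiation of endocrine cells. REST works the other way, as a repressor that sits on RE1 sites of neuronal genes and silences them outside the nervous system.

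Prox1, the member that differed most, lies on chromosome 1 of GRCm38 from 190118035 to 190170714, on the minus strand, with up to 5 exons in GENCODE. RefSeq gives it 2 start sites, and the 250 bases before each are shown because no other member had a difference that any tool called. The Mycn window, on chromosome 12, is shown beside them as that of the member highest over its TRAMP level among those tested. Each is written 5′ to 3′ on the strand of the gene (GRCm38.p6), of which the Mycn one leaves out the 78 bases that GENCODE places in the first exon, with capitals for E-boxes, CANNTG, the motif bound by bHLH factors.
Prox1, upstream start, chr1:190170828-190171077, minus strand: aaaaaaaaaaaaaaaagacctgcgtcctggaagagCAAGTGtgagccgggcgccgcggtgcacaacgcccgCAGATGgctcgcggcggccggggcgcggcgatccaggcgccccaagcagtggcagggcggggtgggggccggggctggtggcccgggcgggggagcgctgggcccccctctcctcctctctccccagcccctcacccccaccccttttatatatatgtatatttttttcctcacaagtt
Prox1, downstream start, chr1:190169516-190169765, minus strand: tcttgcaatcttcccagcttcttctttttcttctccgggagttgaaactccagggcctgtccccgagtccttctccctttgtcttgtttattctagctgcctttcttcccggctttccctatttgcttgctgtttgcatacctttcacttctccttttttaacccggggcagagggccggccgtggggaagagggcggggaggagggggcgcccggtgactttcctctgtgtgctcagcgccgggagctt
Mycn, chr12:12941915-12942086, minus strand: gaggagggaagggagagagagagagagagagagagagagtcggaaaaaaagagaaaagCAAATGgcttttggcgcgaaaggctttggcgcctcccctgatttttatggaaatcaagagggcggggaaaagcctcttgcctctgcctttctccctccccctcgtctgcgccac
The upstream Prox1 window held 2 E-boxes, 215 and 179 bases before the start, and the second of these, CAGATG, is of a kind preferred by proneural factors. It also held TATAAA on the opposite strand, 34 bases before the start. The downstream Prox1 window held no E-box and the Mycn window 1, at 192 bases. Of 32851 windows of the same length, 66.2% held CANNTG, 14.4% CAGATG and 12.4% TATAAA on either strand, so none of these is rare. The windows of Neurod1, Nkx2-2, Pou3f2, Mycn and Prox1 were between 54.8% and 67.6% GC, above the median of 52.4% for all windows, and held 8 to 22 CG pairs against a median of 6. None of them held the octamer ATGCAAAT of POU factors or either part searched of the RE1 site of REST, TTCAGCACC and GGACAGCG. Insm1, Onecut2 and Rest had no entry.

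**Figure D1:**
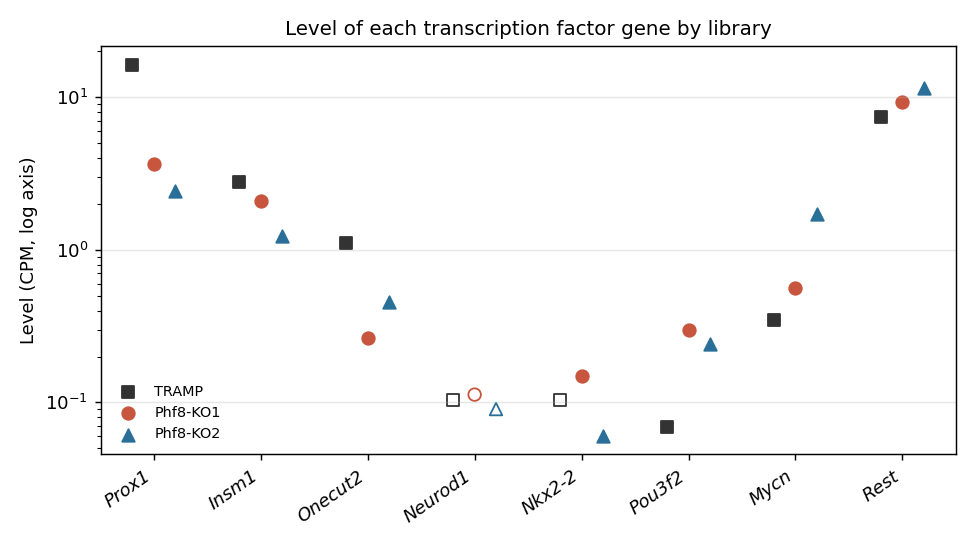
Level in CPM (log axis) of the 8 genes in each library, drawn as squares (TRAMP), circles (Phf8-KO1) and triangles (Phf8-KO2), each library a pool of RNA from 3 mice. Open symbols have 0 counts and are drawn at the level of 3 counts; Prox1 lies at 16.4 CPM in TRAMP, with the Phf8-KO libraries at 3.64 and 2.44 CPM, and Rest at 7.44, 9.30 and 11.5 CPM.

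PROX1 is a homeodomain factor of endocrine, neural, liver and lymphatic cells. Its gene had 474 counts in TRAMP, 97 in Phf8-KO1 and 81 in Phf8-KO2, which is 16.4, 3.64 and 2.44 CPM. Both Phf8-KO libraries lay far below TRAMP. The level in Phf8-KO2 was 0.672 times that in Phf8-KO1 (95% counting interval 0.494 to 0.911), a gap that 31.7% of genes tested exceeded. The Phf8-KO level was 3.04 ± 0.845 CPM (SD, n = 2), and the log2 fold change from TRAMP was -2.43 (standard error 0.44). The adjusted p was 0.103 by edgeR and 0.0013 by DESeq2. Scaled to library size, the TRAMP level was 5.51 times that of the Phf8-KO libraries together, with a 95% counting interval of 4.63 to 6.58. Of all genes tested, 5.48% had a lower log2 fold change. In whole tissue, fewer cells that express a gene and less RNA per cell cannot be told apart. The antisense gene Prox1os shares 133 exon bases with Prox1 and has no row of its own, and as the strand setting of the counting is not given, reads of this stretch may come from either.

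INSM1, a zinc finger repressor of non-endocrine genes in developing endocrine cells, is encoded by a gene of 1 exon on chromosome 2 (146221921 to 146225020, plus strand). It had 81, 56 and 41 counts, or 2.80, 2.10 and 1.24 CPM. The levels were ordered the same way as for Prox1, with log2 ratios to TRAMP of -0.41 in Phf8-KO1 and -1.16 in Phf8-KO2. The fitted log2 fold change was -0.75 (standard error 0.66, adjusted p = 0.502 by edgeR and 0.702 by DESeq2), and neither tool called it.

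Onecut2 encodes a homeodomain factor of liver, pancreas and nerve cells and lies on chromosome 18 (64340020 to 64400987, plus strand). It had 32 counts in TRAMP, 7 in Phf8-KO1 and 15 in Phf8-KO2, or 1.11, 0.263 and 0.453 CPM. Both Phf8-KO libraries were below TRAMP, at counts too low for a firm value. The TRAMP level was 3.01 times that of Phf8-KO (95% counting interval 1.69 to 5.44). The log2 fold change was -1.61 (standard error 0.89, adjusted p = 0.321 by edgeR and 0.598 by DESeq2).

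Neurod1, a bHLH factor gene on chromosome 2 (79452521 to 79456751) with 2 exons, had 0 counts in TRAMP, Phf8-KO1 and Phf8-KO2, which allows levels of up to 0.104, 0.113 and 0.0905 CPM. Its annotated exons share 201 bases with Cerkl, which had 14, 5 and 0 counts. Nkx2-2, a homeodomain factor gene on chromosome 2 (147177546 to 147194243), had 0 counts in TRAMP, 4 in Phf8-KO1 and 2 in Phf8-KO2, and no difference was detectable at this depth. Pou3f2, which encodes the neural POU factor BRN2 in 1 exon on chromosome 4 (22482780 to 22488366), had 2, 8 and 8 counts. Its level was 0.0692, 0.300 and 0.241 CPM. The level of Pou3f2 in Phf8-KO was 3.87 times that in TRAMP, but the 95% counting interval of 0.909 to 34.7 includes no difference. These 3 genes failed the filter on low counts, and the highest count of any of them in any library was 8.

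Mycn encodes N-MYC, a bHLH leucine zipper factor known as a driver of neuroendocrine and nerve cell tumors, and lies on chromosome 12 (12936093 to 12941914, minus strand). It had 10 counts in TRAMP, 15 in Phf8-KO1 and 57 in Phf8-KO2, or 0.346, 0.563 and 1.72 CPM. Phf8-KO1 stood near TRAMP and Phf8-KO2 stood apart from both. The level in Phf8-KO2 was 3.06 times that in Phf8-KO1 (95% counting interval 1.71 to 5.81), a gap between these libraries that 10.4% of genes tested exceeded. The log2 fold change over both was 1.72 (standard error 1.14, adjusted p = 0.390 by edgeR and 0.528 by DESeq2). The log2 ratio to TRAMP was 2.20 in Phf8-KO2 alone and 0.66 in Phf8-KO1 alone.

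Rest, on chromosome 5 (77265491 to 77286432, plus strand, up to 4 exons), had 215 counts in TRAMP, 248 in Phf8-KO1 and 381 in Phf8-KO2. Its level was 7.44, 9.30 and 11.5 CPM, with both Phf8-KO libraries above TRAMP. The log2 fold change of 0.48 (standard error 0.38) had an adjusted p of 0.452 by edgeR and 0.600 by DESeq2, so neither tool called it. Counting error alone put the ratio of Phf8-KO to TRAMP at 1.21 to 1.66.

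**Figure D2:**
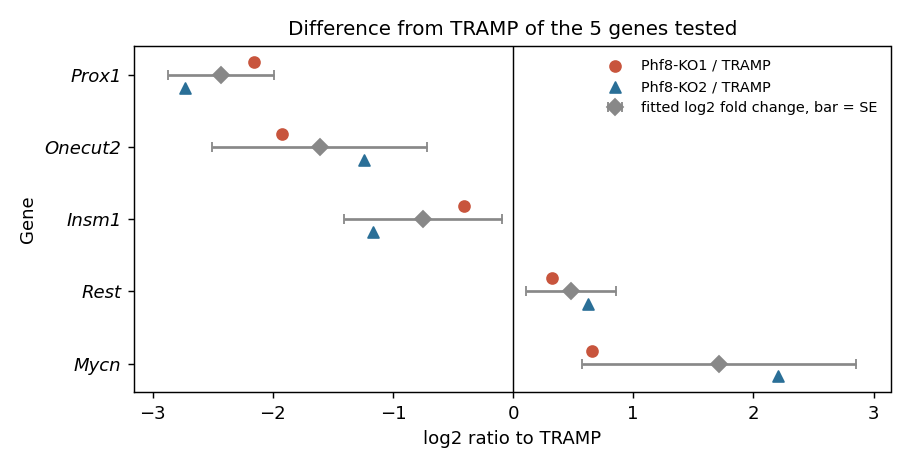
log2 ratio to TRAMP of the 5 genes tested, for Phf8-KO1 (circles) and Phf8-KO2 (triangles), from counts with a prior count of 1, and the fitted log2 fold change over both with its standard error (diamonds and bars). Prox1 lies at -2.16 and -2.73, and Mycn at 0.66 and 2.20.

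By direction, 3 of the 5 genes tested had both Phf8-KO libraries below TRAMP and 2 had both above, against 42.8% and 40.8% of all genes tested. At an unadjusted p under 0.05 in edgeR's quasi-likelihood test, the threshold of every unadjusted count given here, 1 was lower (Prox1) and 0 were higher, against 12.2% and 14.9% of genes. The median log2 fold change of the 5 was -0.75, against 0.01 over all genes tested. By level per kilobase of exon, which allows genes to be compared, Prox1 was first in TRAMP at 1.95 CPM per kilobase, followed by Rest at 1.03 and Insm1 at 0.904. In both Phf8-KO libraries Rest was first, at 1.29 CPM per kilobase in Phf8-KO1 and 1.59 in Phf8-KO2. Prox1 stood below Insm1 in both, at 0.434 in Phf8-KO1 and 0.291 in Phf8-KO2, and in Phf8-KO2 also below Mycn at 0.522. Mycn was at 0.105 CPM per kilobase in TRAMP and 0.171 in Phf8-KO1. Onecut2, Pou3f2, Nkx2-2 and Neurod1 were at most 0.0682 CPM per kilobase in any library. The summed level of the 7 genes other than Rest was 20.7, 7.02 and 6.15 CPM, and Prox1 made up 79.1% of this sum of counts in TRAMP, 51.9% in Phf8-KO1 and 39.7% in Phf8-KO2. The level of Rest was 0.359 times this sum in TRAMP, 1.33 times in Phf8-KO1 and 1.87 times in Phf8-KO2.

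Genes with a pattern over the 3 libraries most like that of a member were sought among genes of similar level, by the Euclidean distance between log2 levels centred on each gene's mean. Nearest to Prox1 were Ccrl2 (distance 0.058), Plek (0.064) and Ifi203 (0.070), out of 2671 genes. Nearest to Rest were Lats2, Ccdc18 and Ube2o, at distances of 0.018 to 0.025, and 881 of 2933 genes lay within a distance of 0.5. For Mycn 34 of 1821 genes lay that near, with Rgs22, Tmem88 and Iqsec3 first, and for Prox1 56. Zfp872 and Dnajc19-ps came first for Insm1, and Adgrg5 and Rdh12 were among the 3 nearest to Onecut2. With 3 libraries such likeness is a description only.

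The relatives of these factors were read from lists of genes of the same families. Counts of each list stand beside the shares over all genes tested. Both Phf8-KO libraries were below TRAMP in 42.8% of genes and above it in 40.8%. By unadjusted p 12.2% were lower and 14.9% higher, and DESeq2 called 4.59% lower and 9.42% higher. Of 14 genes in a list of proneural bHLH factors and their relatives, Neurod1 left out, 5 had 0 counts in every library and 3 could be tested. Atoh1, a factor of secretory cells in the gut and of hair cells, was far above TRAMP in both Phf8-KO libraries, with 3 counts in TRAMP and levels of 0.104, 16.1 and 68.0 CPM, a ratio of Phf8-KO to TRAMP of 432 (95% counting interval 148 to 2099). Atoh8 was at 0.830, 33.2 and 72.5 CPM and Hes6 at 54.5, 35.1 and 48.8 CPM. By edgeR 0 of the 3 passed (by unadjusted p 0 were lower and 2 were higher), and DESeq2 called Atoh1 and Atoh8 higher.

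Proneural factors bind DNA with E proteins, and ID proteins block that pairing. Of 8 such partners and inhibitors, 6 had both Phf8-KO libraries above TRAMP and 2 had both below, against 40.8% and 42.8% of all genes tested. The median log2 fold change was 1.15 against 0.01 over all genes tested. Id1 was at 22.0 CPM in TRAMP against 153 ± 18.5 CPM (SD, n = 2) in Phf8-KO, with a fitted log2 fold change of 2.80 (standard error 0.24). Id3 was at 8.16 and 57.5 ± 6.72 CPM, Id2 at 96.3 and 187 ± 9.60 CPM and the E protein gene Tcf3 at 21.0 and 62.9 ± 0.120 CPM. The Phf8-KO libraries were close to each other and apart from TRAMP for each of these. The other E protein genes, Tcf4 (58.2 and 46.0 ± 0.693 CPM) and Tcf12 (132 and 112 ± 13.0 CPM), were the 2 below TRAMP. By edgeR 0 of the 8 passed, and by unadjusted p 6 were higher and 0 lower, against 14.9% and 12.2% of genes. DESeq2 called 4 higher (Tcf3, Id1, Id3 and Hes1), against 9.42% of genes.

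**Figure D3:**
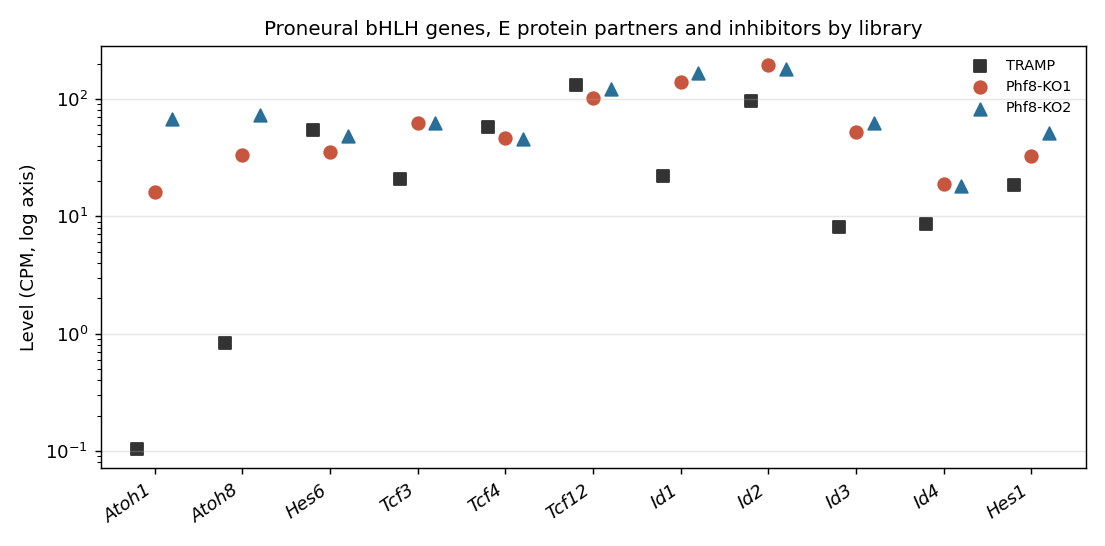
Level in CPM (log axis) in each library (squares TRAMP, circles Phf8-KO1, triangles Phf8-KO2). Shown are the proneural bHLH genes and relatives tested, the E protein genes Tcf3, Tcf4 and Tcf12, and the inhibitor genes Id1 to Id4 and Hes1. Atoh1 lies at 0.104 CPM in TRAMP, with the Phf8-KO libraries at 16.1 and 68.0 CPM, and Id1 and Id3 lie above TRAMP in both.

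Among 30 relatives of the homeodomain, POU, ONECUT and PROX members, 13 had 0 counts in every library and 6 could be tested. Prox2, the paralog of Prox1, was at 1.73, 3.56 and 3.02 CPM (a log2 fold change of 0.93 ± 0.57, SE), the opposite side from Prox1. The paralogs of Pou3f2 were near 0 too, with Pou3f1 at 0, 1 and 1 counts and Pou3f3 at 0, 8 and 3, as were Onecut1, at 0, 2 and 0, and Onecut3, at 0 counts. Isl1, a homeodomain factor of neurons and endocrine cells, was at 7.89, 13.8 and 24.4 CPM. Pou2f3, the factor of tuft cells, was at 3.56 CPM in Phf8-KO1 and at 0.415 and 0.362 CPM in TRAMP and Phf8-KO2. Of the 6, 0 passed edgeR, 0 had an unadjusted p under 0.05 and 0 were called by DESeq2.

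Of 12 zinc finger and other neuroendocrine factor genes, 8 could be tested. Of these 5 had both Phf8-KO libraries below TRAMP, against 42.8% of all genes tested. Foxa2, a forkhead factor gene, was at 4.84, 0.300 and 0.634 CPM, and the study picked it from these libraries, so its direction is no independent evidence. St18 and Myt1, zinc finger factor genes of 1 family, were at 3.56, 0.450 and 0.151 CPM and at 1.80, 0.338 and 0.302 CPM, both far below TRAMP in each Phf8-KO library. The log2 fold change was -3.57 (standard error 0.89) for St18 and -2.48 (standard error 0.76) for Myt1. Insm2, the paralog of Insm1, had 0 counts throughout. Of the 8, 0 passed edgeR, and 3 were lower and 0 higher by unadjusted p, against 12.2% and 14.9% of genes. Foxa2 and St18 were called lower by DESeq2, which called 4.59% of genes lower.

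In the MYC network, the paralogs of Mycn lay above TRAMP in both Phf8-KO libraries, and per kilobase of exon in Phf8-KO2, where Mycn was highest at 0.522 CPM, Mycl was at 27.4 CPM and Myc at 20.5 CPM. Mycl was at 47.1 CPM in TRAMP against 110 ± 1.59 CPM (SD, n = 2) in Phf8-KO, with a fitted log2 fold change of 1.22 (standard error 0.19), and Myc at 34.9 and 50.2 ± 7.91 CPM. Aurka, a mitotic kinase that also stabilizes N-MYC, was at 10.1 and 25.3 ± 1.21 CPM, while Fbxw7, which marks MYC proteins for destruction, was at 50.1 and 34.3 ± 1.43 CPM. The repressor genes Mxd3 and Mnt were at 2.87 and 11.9 ± 2.49 CPM and at 11.9 and 30.7 ± 4.01 CPM. Of the 12 genes, 9 had both Phf8-KO libraries above TRAMP and 3 both below, against 40.8% and 42.8% of all genes tested. By edgeR 0 passed, and by unadjusted p 5 were higher and 1 lower, against 14.9% and 12.2% of genes. DESeq2 called 4 higher (Mycl, Mxd3, Mnt and Aurka), against 9.42% of genes. Among markers of dividing cells, Mki67 was at 220.0 CPM in TRAMP against 376 ± 13.6 CPM in Phf8-KO, and its part in these values was not tested.

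REST acts with the corepressors RCOR1 and SIN3 and their enzymes. Rcor1 was at 25.6 CPM in TRAMP against 58.0 ± 12.6 CPM (SD, n = 2) in Phf8-KO, with a fitted log2 fold change of 1.18 (standard error 0.28). Ctdsp1, a phosphatase gene of the REST pathway, was at 81.8 and 182 ± 3.49 CPM, and Kdm5c, an H3K4 demethylase gene, at 67.3 and 120.4 ± 11.7 CPM. Sin3b lay on the other side, at 153 and 96.6 ± 5.93 CPM. Srrm4, the splicing factor gene that turns Rest into a truncated neural form, had 29, 14 and 8 counts. Of 18 cofactors and regulators, 10 had both Phf8-KO libraries above TRAMP and 7 both below, against 40.8% and 42.8% of all genes tested. The median log2 fold change was 0.22. By edgeR 0 of 18 passed, and by unadjusted p 3 were higher and 1 lower, against 14.9% and 12.2% of genes. DESeq2 called 3 higher (Rcor1, Rcor2 and Ctdsp1) and 0 lower, against 9.42% and 4.59% of genes.

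Genes that REST is known to repress through RE1 sites lay mostly below TRAMP. Of 18 tested, 13 had both Phf8-KO libraries below it and 3 both above, against 42.8% and 40.8% of all genes tested. The median log2 fold change was -1.06 against 0.01 over all genes tested. Snap25, a gene of vesicle fusion, was at 13.1, 2.44 and 1.69 CPM (a log2 fold change of -2.67 ± 0.46, SE). The synaptic gene Syn1 was at 1.52, 0.225 and 0.151 CPM, and Syt4 at 5.29, 0.600 and 0.0603 CPM. Mapk8ip1, a scaffold of the JNK kinases, stood on the other side at 10.8, 38.2 and 35.4 CPM (a log2 fold change of 1.76 ± 0.22, SE). Chrnb2 and Scn2a, genes of a receptor and a sodium channel, were at 4.12, 4.31 and 3.47 CPM and at 0.830, 0.788 and 0.815 CPM, with little between the libraries. By edgeR 0 of 18 passed, and by unadjusted p 5 were lower and 1 higher, against 12.2% and 14.9% of genes. DESeq2 called 3 lower (Snap25, Syt4 and Chga) and Mapk8ip1 higher, against 4.59% and 9.42% of genes. Chga was among the genes the study picked from these libraries, and Chga, Syp and Snap25 also stand in the marker lists of neuroendocrine or nerve cells.

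**Figure D4:**
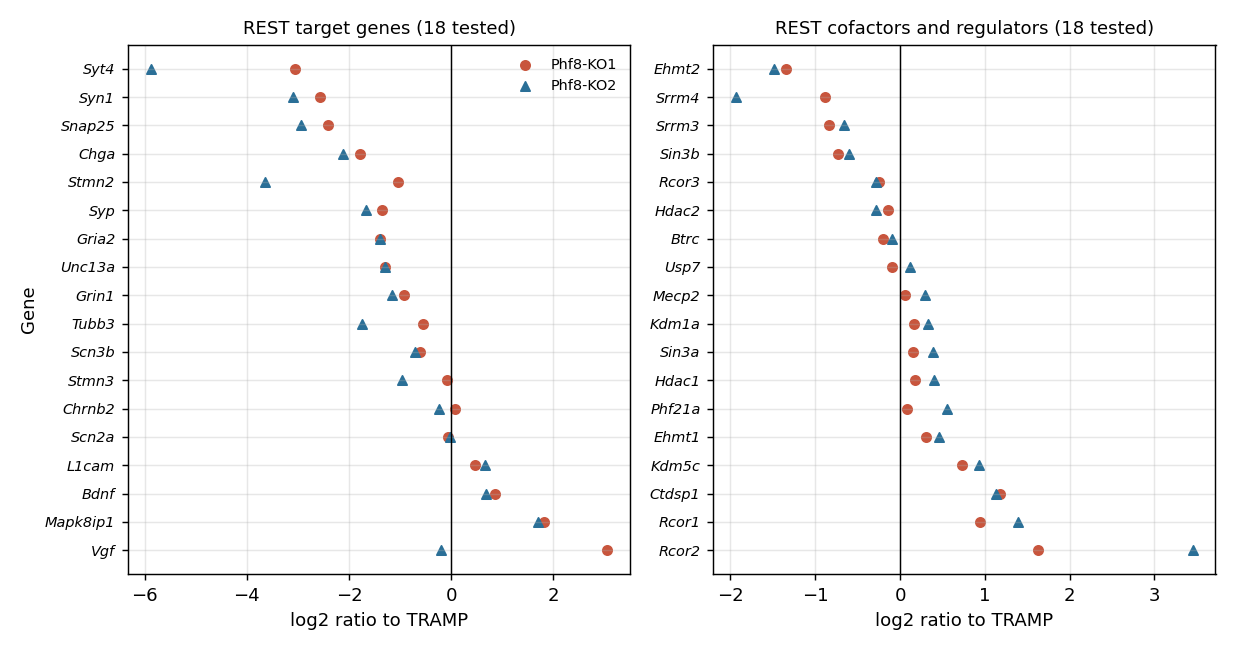
log2 ratio to TRAMP, from counts with a prior count of 1, of the REST target genes tested (left) and of the genes of REST cofactors and regulators (right), shown as circles (Phf8-KO1) and triangles (Phf8-KO2). Of 18 target genes 13 lie below 0 in both libraries, and Mapk8ip1 is above 0 in both.

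Markers of the cell types that use these factors are given beside them. The 12 neuroendocrine markers summed to 170, 56.7 and 33.7 CPM, the same order as Prox1 and Insm1. The sums of neuron and Schwann cell, lymphatic and skeletal muscle markers had this order too. Of the 11 neuroendocrine markers that could be tested, 9 had both Phf8-KO libraries below TRAMP and 0 both above. Over all genes tested the shares were 42.8% and 40.8%. At an unadjusted p under 0.05 in edgeR's quasi-likelihood test 6 were lower, against 12.2% of genes. By edgeR 0 passed, and DESeq2 called 4 lower, against 4.59% of genes. Syp was at 6.30, 2.44 and 1.96 CPM and Chga at 17.0, 4.88 and 3.92 CPM, so both were present in all 3 libraries. Dll3 had 7, 3 and 0 counts. Ncam1 did not follow Syp and Chga, at 15.7, 29.4 and 13.9 CPM. Eno2, the gene of the marker NSE named by the study, was at 1.80, 1.84 and 0.392 CPM, with Phf8-KO1 not below TRAMP. The 11 markers of neurons and Schwann cells summed to 40.6, 21.1 and 12.4 CPM, with the Schwann cell gene Sox10 at 24, 3 and 0 counts and the neuronal genes Th at 42, 5 and 5 counts and Elavl4 at 171, 128 and 133 counts. Their part in the values of Prox1, Insm1, Onecut2 and the REST target genes was not tested.

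Prox1 also marks lymphatic vessels. The 5 lymphatic markers summed to 29.0, 28.6 and 1.48 CPM, with Lyve1 at 13.9, 9.98 and 0.0603 CPM and Ccl21a at 0 counts throughout. Mmrn1 was at 13.4, 12.4 and 0.241 CPM, Flt4 at 1.66, 3.64 and 1.12 CPM and Pdpn at 0.0692, 2.55 and 0.0603 CPM. The near equal sums of TRAMP and Phf8-KO1 thus hold genes that differ in both directions. The part of lymphatic vessels in the level of Prox1 was not tested. The 8 goblet and enteroendocrine markers summed to 823, 598 and 2685 CPM. Of the 5 that could be tested, 2 had both Phf8-KO libraries below TRAMP and 2 both above, against 42.8% and 40.8% of all genes tested. By edgeR 0 passed, and by unadjusted p 1 was lower and 2 were higher, against 12.2% and 14.9% of genes. DESeq2 called Agr2 and Tph1 lower and Tff3 and Fcgbp higher, against 4.59% and 9.42% of genes. Tff3, a peptide of mucus-secreting cells, was at 5.09, 320 and 2203 CPM and Fcgbp, a mucus protein, at 0, 5.97 and 24.0 CPM. Agr2, a gene of protein folding in secretory cells, was at 786, 270 and 456 CPM and Tph1 at 31.4, 2.33 and 1.03 CPM, so the list had no single direction. The hormone genes Gcg and Cck of enteroendocrine cells had at most 4 counts in any library. Skeletal muscle markers summed to 1150, 69.2 and 7.90 CPM and adipocyte markers to 630, 18.8 and 30.7 CPM, while prostate luminal markers summed to 4419, 5122 and 5137 CPM. The seminal vesicle markers summed to 112, 1385 and 1997 CPM, the blood endothelial ones to 72.3, 47.8 and 89.5 CPM and those of dividing cells to 486, 730 and 647 CPM. By edgeR 3 of the 7 skeletal muscle markers were called lower (Myh4, Tnnt3 and Atp2a1), against 0.0384% of all genes tested. Of the other 9 marker lists 0 genes were called. The part of these tissues in the members' values was not tested.

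**Figure D5:**
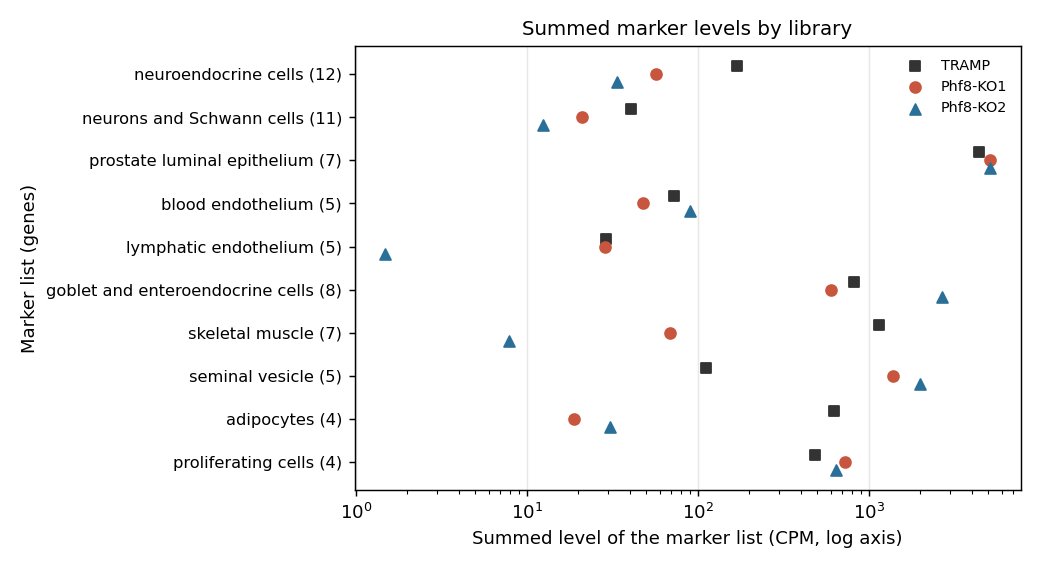
Summed level in CPM (log axis) of 10 lists of cell type markers in each library, with the number of genes in brackets (squares TRAMP, circles Phf8-KO1, triangles Phf8-KO2). Neuroendocrine markers sum to 170 CPM in TRAMP, with the Phf8-KO libraries at 56.7 and 33.7 CPM, and lymphatic markers to 29.0, 28.6 and 1.48 CPM.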

How the data were processed

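Gene counts were deposited by the authors as raw whole numbers per gene and library: reads were aligned to the mouse genome GRCm38 with HISAT2 and counted with HTSeq, and the versions, annotation release and strand setting are not given in the sources used here. From these counts, levels were computed as CPM on TMM library sizes, and levels per kilobase with GENCODE M21 exon lengths. Genes passing filterByExpr by group were tested with edgeR 4.0.16 (R 4.3.3, limma 3.58.1), quasi-likelihood test, all 3 libraries, with Benjamini-Hochberg adjustment over all genes tested. A call needed an adjusted p under 0.05 together with a fold difference above 2. The fit has 1 residual degree of freedom, so the spread between the Phf8-KO pools stands in for that of TRAMP. DESeq2 1.42.0, limma-voom, other scalings and filters were alternatives. Scripts were tested on simulated data. Counting intervals (95%, exact conditional binomial) and the floor of 3 counts cover counting error only.

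The members and gene lists were chosen with earlier results of these data known. From the lists, 2 genes are not reported here and are left out of list counts and sums. The genes named are the members, annotated genes that overlap them, up to 4 genes of smallest unadjusted p in each list, those of the study's text, and for each tested member the 3 nearest genes in log2 level (predicted genes left out, mean CPM within 2-fold), of which unnamed loci are not printed. Further list genes named in the text (among them Syt4, Chrnb2, Scn2a, Myc, Fbxw7, Srrm4, Tcf4, Tcf12, Krt18, Elavl4, Dll3, Ncam1, Gcg, Cck and the paralogs at or near 0) were chosen after their values were seen. Promoter windows are from RefSeq, 250 bases before a start, and motifs were searched on both strands, with those listed allowed to overlap.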

Additional observations from a re-analysis of the deposited data

How the results depend on the processing

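The direction of each of the 5 genes tested stayed the same under every alternative that gave it a value. The count of members called lower, 0 in edgeR's quasi-likelihood test, became 1 without a filter on low counts and 1 with DESeq2, Prox1 each time, at adjusted p of 0.012 and 0.0013, and the count called higher was 0 throughout. The cause was not tested. Without the filter the test took in 25757 genes and called 856 lower and 1430 higher, and DESeq2 called 747 and 1533, against 7 and 0. Library totals alone gave 19 and 1, upper quartile scaling 10 and 0, and limma-voom and a mean of at least 1 CPM, which drops Onecut2 and Mycn, 0 and 0. The adjusted p over the alternatives was 0.0013 to 0.106 for Prox1, 0.419 to 0.702 for Insm1, 0.270 to 0.598 for Onecut2, 0.361 to 0.528 for Mycn and 0.420 to 0.600 for Rest. With 1 Phf8-KO library left out, a value with no test, the log2 fold change ran from -2.73 to -2.16 for Prox1, -1.16 to -0.41 for Insm1, -1.93 to -1.24 for Onecut2, 0.66 to 2.20 for Mycn and 0.32 to 0.63 for Rest. The planned legacy setting of edgeR proved to be its default, so the other setting was added after seeing the data, and it called 10 genes lower, 0 of them members. Upper quartile scaling shifted the median log2 fold change of all genes by -0.15 and turned the sign of Pax6 and Usp7, and library totals that of Scn2a. No paired analysis was possible because 1 TRAMP library stands against 2 Phf8-KO libraries and no link between their mice is given. Depth limits Neurod1, Nkx2-2 and Pou3f2, with at most 8 counts.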

Other observations

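Among the genes of smallest unadjusted p in the marker lists of neuroendocrine cells and of goblet and enteroendocrine cells, 4 are given here, chosen by their values and standing for no group. Values are in the order TRAMP, Phf8-KO1, Phf8-KO2. Ddc, which decarboxylates the precursors of dopamine and serotonin, was at 36.4, 6.90 and 5.52 CPM, and Tph1, which starts serotonin synthesis, at 31.4, 2.33 and 1.03 CPM. Pcsk1, a protease that matures peptide hormones, was at 60.1, 0.225 and 0.0302 CPM and the granule gene Scg2 at 13.0, 0.300 and 0.0603 CPM. DESeq2 called all 4 lower and edgeR's quasi-likelihood test none of them.

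Rfx6, a factor gene of endocrine cells, was at 8.34, 8.22 and 0.121 CPM, and the lymphatic genes Lyve1 and Mmrn1 were also near 0 in Phf8-KO2 alone. These 3 genes were picked after their values were seen.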
